A study of Rattus norvegicus with 16 samples.

Results

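The genes described here encode molecules that present peptides to T cells. They are Cd74, RT1-Da, RT1-Ba, RT1-Bb, RT1-Db1, B2m, Tap1 and Tap2, 8 genes of the 14218 that the array annotation names with a single symbol. Every probe set whose only symbol is one of these genes was taken, which gave 15 of the 31042 probe sets that are no array control. RT1-Ba had 4 probe sets, RT1-Bb, RT1-Db1, B2m and Tap1 had 2 each, and Cd74, RT1-Da and Tap2 had 1 each. The probe sets are described separately, since those of 1 gene did not always move together.

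RNA came from the cortex at the site of contusion in male Wistar rats aged 8 weeks. All animals, shams included, had a craniectomy under anaesthesia 48 h before the procedure and were perfused with saline at the end. Injured animals then received moderate fluid percussion, in which a pulse of saline strikes the exposed dura as a model of traumatic brain injury, and were taken 3, 6, 12 or 48 h later (3 arrays at each time). Sham animals had the same operation without the pulse. The 3, 6 and 12 h shams (1 array each) form the control for all early times and are called the early shams. The 48 h sham is a single array, which the study kept apart because it differed from the early shams in its clustering. The labels do not say how many animals stand behind an array, so each p-value measures only the spread between arrays, part of which may be technical.

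Class II molecules are pairs of an alpha and a beta chain that carry peptides from the endosome to the cell surface, where helper T cells read them. Cd74, the invariant chain, blocks the peptide groove until the pair reaches the endosome. In the brain, microglia, macrophages and other myeloid cells can make class II. B2m is the light chain of class I molecules, and Tap1 and Tap2 together form the transporter that brings peptides from the cytosol into the endoplasmic reticulum for loading onto class I. The rat names of the class II chains follow their locus, with RT1-D for the homologue of human HLA-DR and RT1-B for that of HLA-DQ.

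All but Cd74 and B2m lie in the rat major histocompatibility complex on chromosome 20. In RefSeq's annotation of the GRCr8 assembly, RT1-Da spans chr20:4515393-4520387, RT1-Db1 chr20:4550594-4560182, RT1-Ba chr20:4577057-4581650 and RT1-Bb chr20:4598475-4604118. Tap2 spans chr20:4638257-4652296 and Tap1 chr20:4658171-4668543. B2m lies at chr3:129549236-129555354 and Cd74 at chr18:56527071-56536406. These positions are those of the genes in that assembly, not of the array's probes.

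Promoters of these genes are shown because class II chains share a pair of elements, the X box and the Y box, that bind the assembly recruited by the class II transactivator Ciita. Class I genes and the transporters respond to interferon and to NF-kB, and neither feature is taken here as exclusive to its class. The windows ran from 250 bases before to 50 after a transcription start of each gene in RefSeq's GRCr8 annotation, and all 8 genes had a window. For RT1-Da, RT1-Db1 and B2m that start lies inside the gene span given above and not at its edge. Distances are counted from that start. Letters were searched on both strands, and the motif letters were chosen after these promoters had been read. The X box was written ACNGATG and the Y box CTGATTGG, and the letters that matched stand in capitals in the stretches of the 4 chain genes, each given 5′ to 3′ on the gene's own strand.
RT1-Da, chr20:4515296-4515400, plus strand: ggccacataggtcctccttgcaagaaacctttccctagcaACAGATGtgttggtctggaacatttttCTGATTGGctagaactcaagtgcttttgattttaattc
RT1-Ba, chr20:4576971-4577048, plus strand: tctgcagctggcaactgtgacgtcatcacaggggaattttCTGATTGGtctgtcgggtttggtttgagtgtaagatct
RT1-Bb, chr20:4604145-4604248, minus strand: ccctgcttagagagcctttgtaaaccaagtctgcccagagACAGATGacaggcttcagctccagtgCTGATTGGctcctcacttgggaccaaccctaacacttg
RT1-Db1, chr20:4560208-4560311, minus strand: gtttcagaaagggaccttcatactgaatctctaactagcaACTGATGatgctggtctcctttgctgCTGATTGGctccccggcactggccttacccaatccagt

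The X box letters occurred in 10.2% and the Y box letters in 3.5% of all 33469 promoters of the same length. Letters of both in this order on 1 strand, with 15 to 25 bases between them, occurred in 4 promoters (0.012%). Those 4 belonged to RT1-Bb, RT1-Da and RT1-Db1, with 19, 20 and 19 bases between the boxes, and to RT1-Db2, a further class II beta chain gene that is not described here, with 18. In RT1-Ba only the Y box matched. In Cd74 none of the 4 motifs searched matched, which says only that these letters are not in its window. Because the letters were chosen after these promoters had been read, matches in the members and the shares beside them are a description only.

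For the class I side, an interferon response element was written GAAANNGAA and an NF-kB site GGGACTTTC. Either motif on the opposite strand appears as its reverse complement, and the matched letters are again in capitals.
B2m, chr3:129549140-129549232, plus strand: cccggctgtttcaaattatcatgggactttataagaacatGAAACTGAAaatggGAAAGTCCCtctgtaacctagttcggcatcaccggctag
Tap1, chr20:4668560-4668703, minus strand: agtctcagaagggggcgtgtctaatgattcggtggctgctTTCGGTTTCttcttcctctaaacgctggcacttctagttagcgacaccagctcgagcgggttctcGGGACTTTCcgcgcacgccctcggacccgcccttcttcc
Tap2, chr20:4652299-4652377, minus strand: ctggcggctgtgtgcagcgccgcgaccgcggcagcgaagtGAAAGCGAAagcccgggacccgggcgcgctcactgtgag

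The interferon letters occurred in 9.71% and the NF-kB letters in 0.326% of all promoters, and both together in 18 promoters (0.0538%), B2m and Tap1 among them. Tap2 held the interferon letters only. A match is a run of letters and was not tested as a binding site. These letters too were chosen after the promoters had been read, so the shares are a description only.

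**Figure D1:**
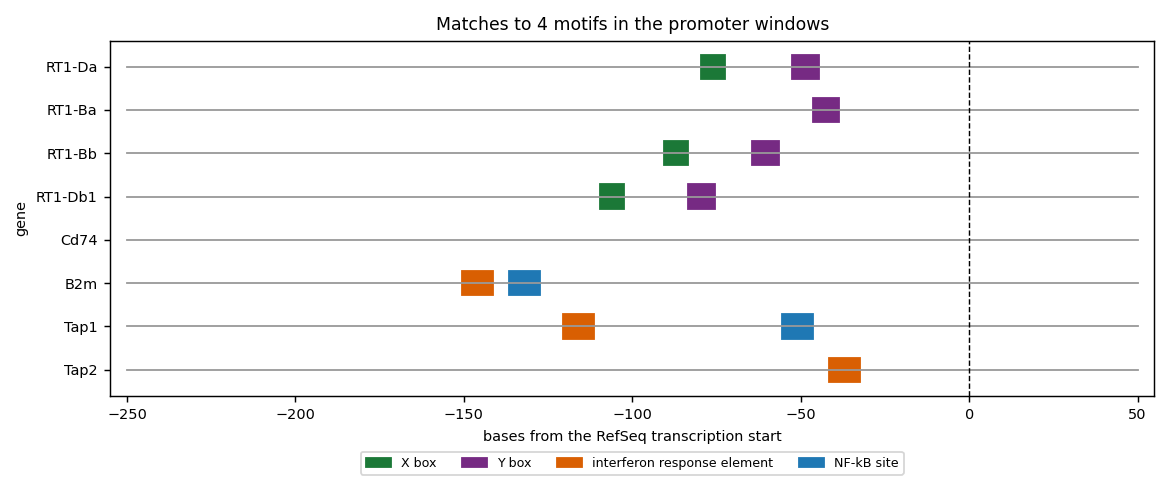
Matches to the X box, Y box, interferon response element and NF-kB letters in the promoter windows of the 8 genes, by distance in bases from the RefSeq transcription start (dashed line). Both boxes matched in RT1-Da, RT1-Bb and RT1-Db1, the Y box alone in RT1-Ba, interferon and NF-kB letters in B2m and Tap1, interferon letters alone in Tap2, and no match in Cd74.

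Levels are the deposited log2 intensities, from which the median of each probe set over the 16 arrays had been subtracted. A value of 0 is thus the probe set's own median, and levels of different genes cannot be set against each other. Over all probe sets the widest spread was that of replicate 2 at 12 h, with an SD of 0.349, and of replicate 2 at 48 h, with 0.347, against 0.19 to 0.281 on the other arrays. Results that change without them are given with and without. Where a gene has several probe sets, the one with the widest range over the arrays is given first. A result was called at a Benjamini-Hochberg adjusted p under 0.05 in a limma fit of all probe sets.

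**Figure D2:**
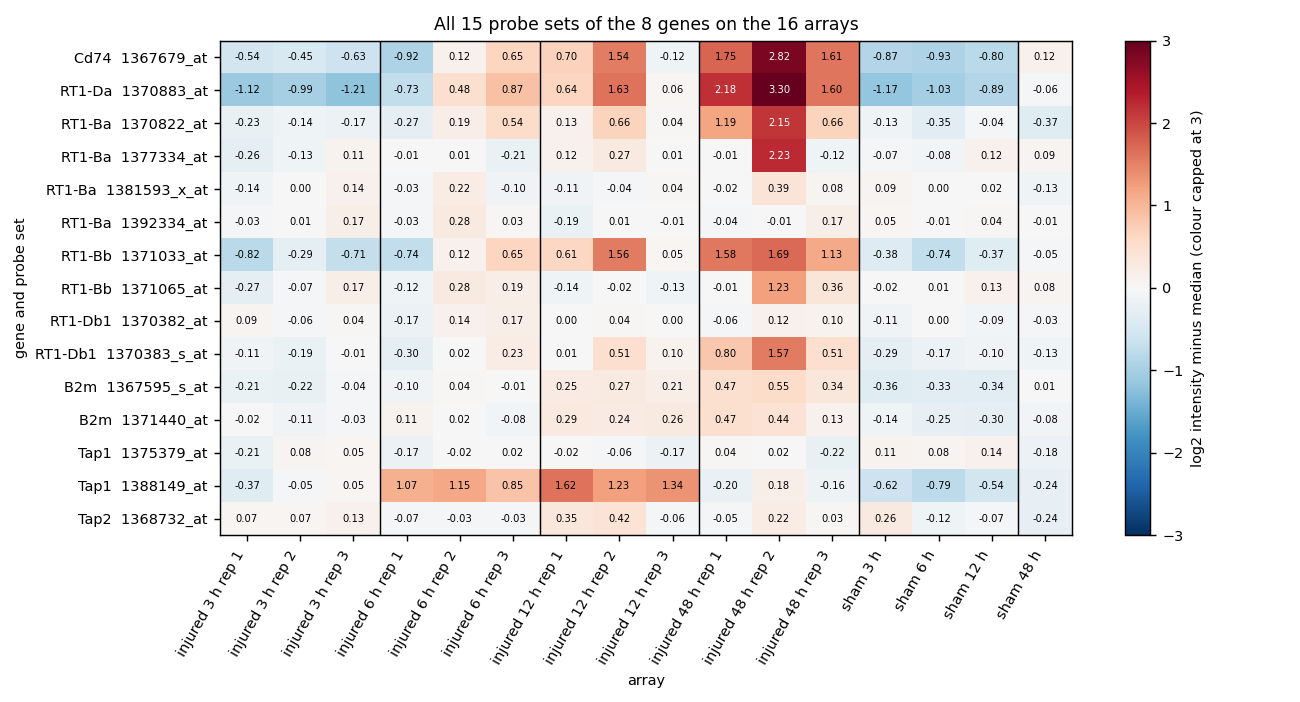
Every probe set of the 8 genes (rows) on each of the 16 arrays (columns), as log2 intensity minus the probe set's median, with the value printed in each cell and colours capped at 3. Cd74, RT1-Da and 1 probe set each of RT1-Ba, RT1-Bb and RT1-Db1 had their highest group mean in the injured 48 h arrays, whereas the injured 6 and 12 h arrays were highest for Tap1 1388149_at.

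Class II transcripts were high in injured cortex at 48 h. Cd74 and 1 probe set of each of the 4 chain genes were called higher there than in the early shams, by 1.15 to 3.39 on the log2 scale, or 2.21-fold to 10.5-fold. For RT1-Ba, RT1-Bb and RT1-Db1 these were the probe sets with the widest range over the 16 arrays, a choice to which the 48 h arrays contribute. With each gene taken as the mean of its probe sets, RT1-Ba was 0.59 above the early shams and not called (adjusted p = 0.0722), and RT1-Db1 was 0.63 above them (adjusted p = 0.0126). At 12 h RT1-Da alone among them was called, and at 3 and 6 h none. In whole cortex, more cells that make class II and more RNA per cell cannot be told apart.

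RT1-Da encodes the alpha chain of the RT1-D molecule. Its probe set stood at -1.12, -0.99 and -1.21 at 3 h, at -0.73, 0.48 and 0.87 at 6 h, at 0.64, 1.63 and 0.06 at 12 h, and at 2.18, 3.3 and 1.6 at 48 h after injury. Early shams were at -1.17, -1.03 and -0.89 and the 48 h sham at -0.06. Every injured array at 6, 12 and 48 h lay above every early sham, while the 3 h arrays overlapped them.

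The difference from the early shams was -0.08 ± 0.45 (SE, 3 against 3 arrays) at 3 h and 1.24 ± 0.45 at 6 h, neither called (adjusted p = 0.988 and 0.262). At 12 h it was 1.81 ± 0.45, or 3.5-fold, with an adjusted p of 0.0448. That call depended on single arrays. It held without injured replicate 3 and was lost when either of the other 2 injured arrays or any 1 of the 3 early shams was left out (adjusted p up to 0.207), with a difference of 1.38 without injured replicate 2. At 48 h it was 3.39 ± 0.45, or 10.5-fold (adjusted p = 0.00128), and 2.92 without injured 48 h replicate 2.

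Cd74 followed the same order of times. It was at -0.54, -0.45 and -0.63 at 3 h, at -0.92, 0.12 and 0.65 at 6 h, at 0.7, 1.54 and -0.12 at 12 h, and at 1.75, 2.82 and 1.61 at 48 h after injury. In the early shams the values were -0.87, -0.93 and -0.8, and the 48 h sham was at 0.12. The 3, 12 and 48 h arrays all exceeded the early shams, whereas 1 of the 6 h arrays lay within their range.

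For Cd74 the difference from the early shams at 48 h was 2.93 ± 0.41 (SE), or 7.6-fold, with an adjusted p of 0.00162. It was 2.55 without injured 48 h replicate 2 and was called in each of the 6 fits that left out 1 array. At 12 h the difference of 1.57 ± 0.41 missed the threshold (adjusted p = 0.0584) and passed it without injured 12 h replicate 3, the lowest of the 3 (1.99 ± 0.40, adjusted p = 0.0124). At 3 and 6 h it was 0.33 and 0.82 ± 0.41 and not called.

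**Figure D3:**
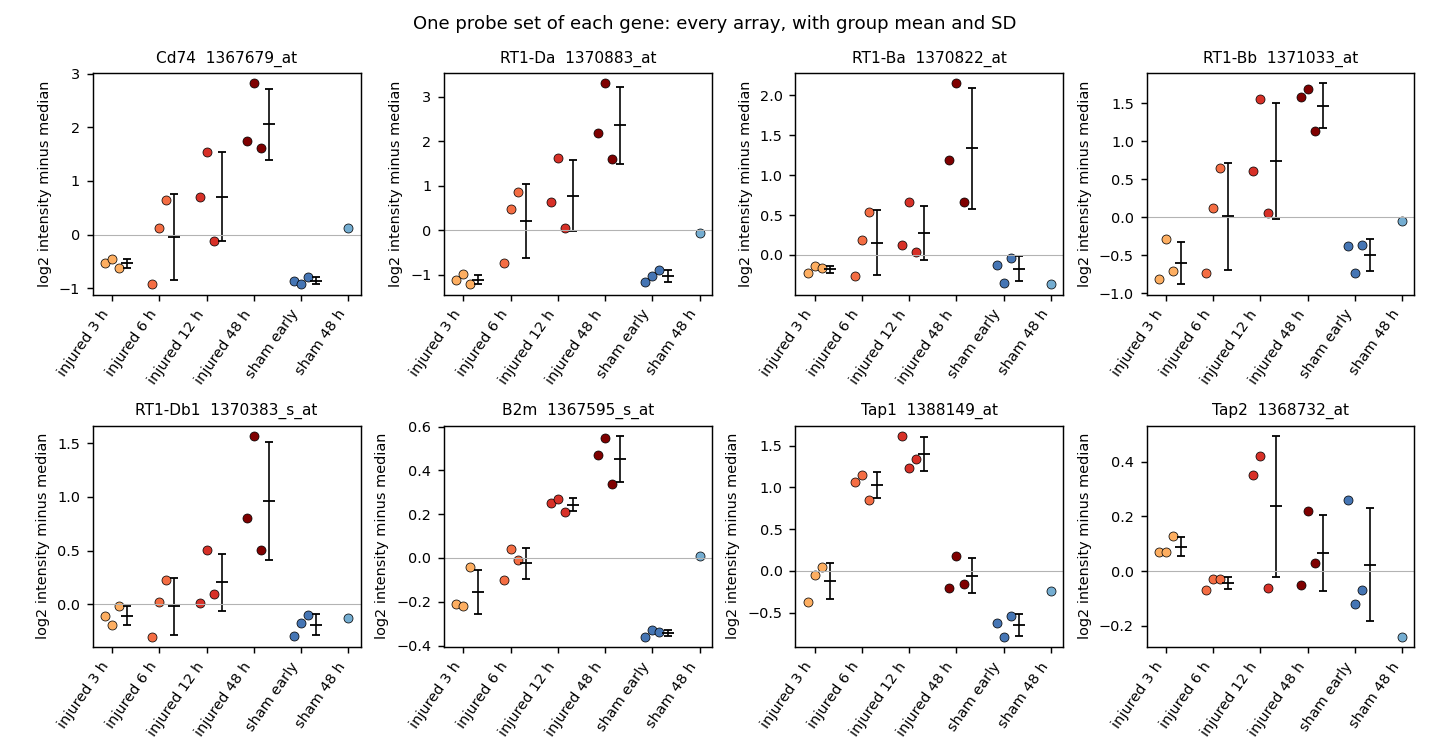
One probe set of each of the 8 genes, with each array as a point, as log2 intensity minus the probe set's median, by group, with bars for the group mean and SD (n = 3, and 1 array for the 48 h sham). The injured 48 h mean is the highest for Cd74, the class II chains and B2m, although single 12 and 48 h arrays overlap for the 4 chains, and injured 6 and 12 h arrays are highest for Tap1.

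The RT1-B molecule pairs the RT1-Ba alpha chain with the RT1-Bb beta chain. RT1-Bb 1371033_at was at -0.82, -0.29 and -0.71 at 3 h, at -0.74, 0.12 and 0.65 at 6 h, at 0.61, 1.56 and 0.05 at 12 h, and at 1.58, 1.69 and 1.13 at 48 h after injury. Values in the early shams were -0.38, -0.74 and -0.37, and the 48 h sham was at -0.05. Both later injured groups lay wholly above the early shams, and its 48 h arrays were closer together than those of the other chains (SD 0.297, n = 3).

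The RT1-Bb difference from the early shams was 1.24 ± 0.35 (SE) at 12 h and not called (adjusted p = 0.0798). Without injured 12 h replicate 3 it was 1.58 and called (adjusted p = 0.018). At 48 h it was 1.96 ± 0.35, or 3.9-fold (adjusted p = 0.00612), and was called in every fit that left out 1 array.

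RT1-Ba 1370822_at was at -0.23, -0.14 and -0.17 at 3 h, at -0.27, 0.19 and 0.54 at 6 h, at 0.13, 0.66 and 0.04 at 12 h, and at 1.19, 2.15 and 0.66 at 48 h after injury. Its early shams were at -0.13, -0.35 and -0.04 and the 48 h sham at -0.37, the lowest of the 16 arrays. The 12 and 48 h injured arrays lay above all 4 shams.

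The RT1-Ba difference from the early shams was 0.45 ± 0.29 (SE) at 12 h (adjusted p = 0.478). At 48 h it was 1.51 ± 0.29, or 2.84-fold (adjusted p = 0.00939), and 1.10 without injured 48 h replicate 2. In a fit of these 2 groups alone the adjusted p was 0.0502.

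RT1-Db1 encodes the beta chain that pairs with RT1-Da. Its probe set 1370383_s_at was at -0.11, -0.19 and -0.01 at 3 h, at -0.3, 0.02 and 0.23 at 6 h, at 0.01, 0.51 and 0.1 at 12 h, and at 0.8, 1.57 and 0.51 at 48 h after injury. For the early shams they were -0.29, -0.17 and -0.1, and the 48 h sham was at -0.13. The 48 h arrays lay well above all shams, and 1 of them, replicate 2, was far above the other 2.

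The RT1-Db1 difference from the early shams at 48 h was 1.15 ± 0.22 (SE), or 2.21-fold (adjusted p = 0.00809), and 0.84 without injured 48 h replicate 2. At 12 h it was 0.39 ± 0.22 (adjusted p = 0.385). The suffix of this probe set marks probes that match more than 1 transcript, and near-identical class II beta chain genes such as RT1-Db2 could contribute to its signal.

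The other class II probe sets did not show the 48 h level. RT1-Db1 1370382_at stayed between -0.17 and 0.17 on all 16 arrays, RT1-Ba 1392334_at between -0.19 and 0.28, and RT1-Ba 1381593_x_at between -0.14 and 0.39. RT1-Ba 1377334_at reached 2.23 on injured 48 h replicate 2 and lay between -0.26 and 0.27 on the other 15 arrays. RT1-Bb 1371065_at likewise reached 1.23 on that array and lay between -0.27 and 0.36 elsewhere. These 5 probe sets were called in no comparison.

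Across the 16 arrays, the probe sets of Cd74, RT1-Da, RT1-Ba 1370822_at, RT1-Bb 1371033_at and RT1-Db1 1370383_s_at gave correlations of 0.859 to 0.981 in their 10 pairs. The arrays share their groups, so these values are a description. In addition, the RT1-Ba, RT1-Bb and RT1-Db1 probe sets were picked by their wide range over these same arrays. That choice favours high correlations among the 5 and lower ones with the other probe sets of those genes. Within groups, injured 48 h replicate 2 was the highest 48 h array and injured 12 h replicate 2 the highest 12 h array for each of the 5. Those are the arrays of widest spread over all probe sets. By contrast, the 2 probe sets of RT1-Bb correlated at 0.507 and those of RT1-Db1 at 0.457, and RT1-Ba 1370822_at correlated at 0.748, 0.551 and -0.02 with the other 3 of its gene.

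The mean of the 5 genes, each taken over all its probe sets, was 1.07, 1.92 and 0.892 at 48 h after injury, against -0.49, -0.50 and -0.37 in the early shams and -0.02 in the 48 h sham. Among probe sets of other named genes, those whose values were most like this mean over the 16 arrays were of Scamp2, a secretory carrier membrane protein (r = 0.967), Fcer1g, the signalling chain of Fc receptors on myeloid cells (r = 0.963), and Casp8, an apoptosis protease (r = 0.962). Next came Tmed10, a cargo receptor of the early secretory pathway (r = 0.954), and Tax1bp3 (r = 0.95).

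B2m was higher from 12 h on and its level varied little between replicates. Probe set 1367595_s_at was at -0.21, -0.22 and -0.04 at 3 h, at -0.1, 0.04 and -0.01 at 6 h, at 0.25, 0.27 and 0.21 at 12 h, and at 0.47, 0.55 and 0.34 at 48 h after injury. Early sham arrays gave -0.36, -0.33 and -0.34, and the 48 h sham was at 0.01. Every injured array at every time lay above every early sham.

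For this B2m probe set the difference from the early shams was 0.19 ± 0.08 (SE) at 3 h and 0.32 ± 0.08 at 6 h, not called (adjusted p = 0.538 and 0.0549). It was 0.59 ± 0.08, or 1.5-fold, at 12 h (adjusted p = 0.000792) and 0.80 ± 0.08, or 1.74-fold, at 48 h (adjusted p = 0.000167). The 6 h value passed the threshold after quantile normalization (adjusted p = 0.0197) and when probe sets without a single symbol were left out (adjusted p = 0.0484).

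Probe set 1371440_at of B2m was at -0.02, -0.11 and -0.03 at 3 h, at 0.11, 0.02 and -0.08 at 6 h, at 0.29, 0.24 and 0.26 at 12 h, and at 0.47, 0.44 and 0.13 at 48 h after injury. In early shams it read -0.14, -0.25 and -0.3, and the 48 h sham was at -0.08. As with the other probe set, all 12 injured arrays lay above all 3 early shams, and the 2 probe sets correlated at 0.921 over the 16 arrays.

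The difference from the early shams for this second probe set was 0.49 ± 0.09 (SE) at 12 h (adjusted p = 0.00936) and 0.58 ± 0.09 at 48 h (adjusted p = 0.0031). The 12 h call was lost without the 6 h sham (0.48, adjusted p = 0.0504). The 1367595_s_at probe set correlated at 0.802 to 0.915 with the 5 class II probe sets.

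Tap1 moved earlier than the class II genes and came down again. Probe set 1388149_at was at -0.37, -0.05 and 0.05 at 3 h, at 1.07, 1.15 and 0.85 at 6 h, at 1.62, 1.23 and 1.34 at 12 h, and at -0.2, 0.18 and -0.16 at 48 h after injury. Early sham values were -0.62, -0.79 and -0.54, and the 48 h sham was at -0.24. The 6 and 12 h arrays were the highest 6 of the 16, and the 3 h and 48 h arrays overlapped each other and all lay above the early shams.

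For Tap1 1388149_at the difference from the early shams was 0.53 ± 0.14 (SE) at 3 h and not called (adjusted p = 0.208). It was 1.67 ± 0.14, or 3.19-fold, at 6 h (adjusted p = 2.58e-05) and 2.05 ± 0.14, or 4.13-fold, at 12 h (adjusted p = 6.47e-06), and both were called under every alternative tried. At 48 h it was 0.59 ± 0.14, or 1.51-fold (adjusted p = 0.0244), and this call was lost without injured 48 h replicate 2 (0.47, adjusted p = 0.127), without the 3 h sham (adjusted p = 0.0576) or without the 6 h sham (adjusted p = 0.105).

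The second Tap1 probe set, 1375379_at, did not follow. It stood at -0.21, 0.08 and 0.05 at 3 h, at -0.17, -0.02 and 0.02 at 6 h, at -0.02, -0.06 and -0.17 at 12 h, and at 0.04, 0.02 and -0.22 at 48 h after injury. Among the early shams they were 0.11, 0.08 and 0.14, and the 48 h sham was at -0.18. All its injured 6, 12 and 48 h arrays lay below the early shams, by small amounts.

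Its difference from the early shams was -0.17 ± 0.10 (SE) at 6 h and -0.19 ± 0.10 at 12 h, not called (adjusted p = 0.332 at 12 h). The 2 Tap1 probe sets correlated at -0.30 over the 16 arrays. A mean over both gave 0.93 at 12 h, less than the 2.05 of 1388149_at alone. Which transcript positions the 2 probe sets cover was not analysed here.

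Tap2, the partner subunit, was called in no comparison. It was at 0.07, 0.07 and 0.13 at 3 h, at -0.07, -0.03 and -0.03 at 6 h, at 0.35, 0.42 and -0.06 at 12 h, and at -0.05, 0.22 and 0.03 at 48 h after injury. The shams were at 0.26, -0.12 and -0.07 at 3, 6 and 12 h and at -0.24 at 48 h. Injured and sham arrays overlapped at every time against the early shams, and the 12 h difference was 0.21 ± 0.13 (SE, 95% interval -0.05 to 0.48, adjusted p = 0.422).

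The likeness of other genes set the 2 Tap1 probe sets apart as well. Nearest to 1388149_at over the 16 arrays were Irgm2 (r = 0.984) and Irgm (r = 0.976), interferon-inducible GTPases, and Dtx3l, a ubiquitin ligase (r = 0.973). Nearest to 1375379_at were Klk1c2, a kallikrein (r = 0.739), Map7d1 (r = 0.723) and Rps4x-ps1 (r = 0.708). Tap1 1388149_at correlated at only 0.0812 to 0.301 with the 5 class II probe sets.

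**Figure D4:**
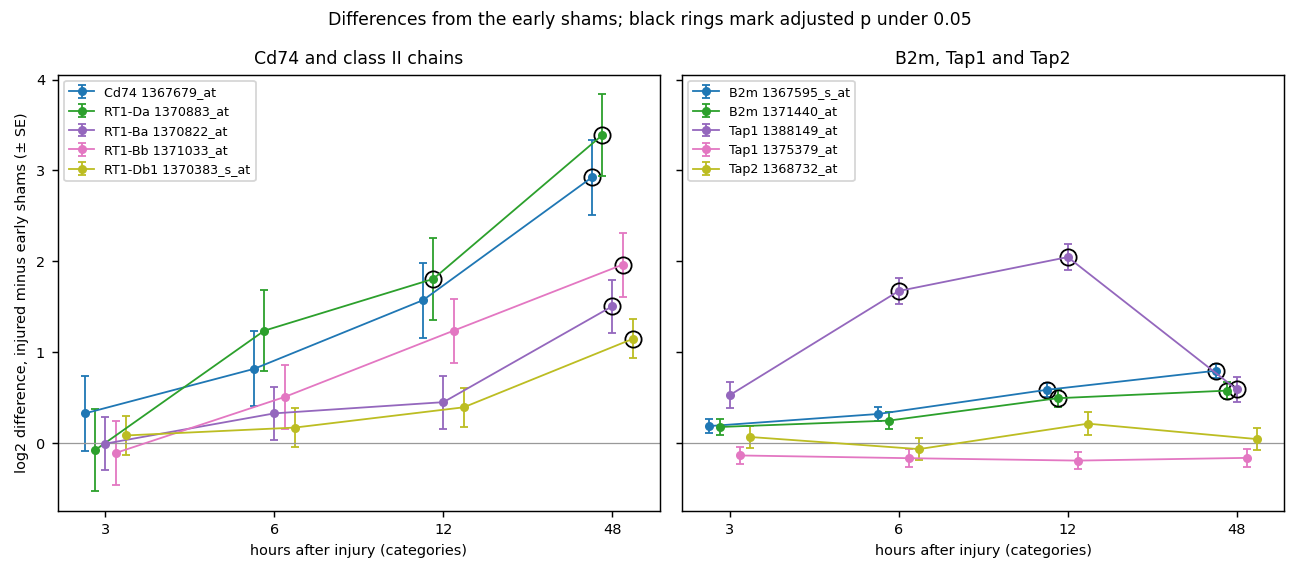
Log2 difference from the early shams by time after injury (4 equally spaced categories) for the 5 leading class II probe sets and for the probe sets of B2m, Tap1 and Tap2, with bars for the standard error and black rings for adjusted p under 0.05. Class II differences are largest at 48 h, up to 3.39, while Tap1 1388149_at is largest at 12 h, at 2.05, and lower at 48 h, at 0.59.

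Counted over all 15 probe sets, the members called against the early shams were 0 at 3 h (2 at an unadjusted p under 0.05), 1 higher at 6 h, 4 higher in 3 genes at 12 h and 8 higher in 7 genes at 48 h. None was called lower. Of all probe sets tested, 0.277% were called in either direction at 3 h, and 1.31%, 2.12% and 3.84% were called higher at 6, 12 and 48 h. The median difference of the 15 was 0.02, 0.17, 0.39 and 0.59 at these times, against -0.01, -0.02, -0.02 and -0.02 over all probe sets.

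Probe sets whose 3 injured arrays all lay above the 3 early shams numbered 4, 4, 8 and 8 of the 15, in order of time. The shares over all probe sets were 6.79%, 9.05%, 8.13% and 11.4%. Both probe sets of B2m were among them at all 4 times, and so was Tap1 1388149_at.

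Steps between consecutive times used injured arrays only. From 3 to 6 h, 1 of the 15 was called, Tap1 1388149_at, higher at 6 h than at 3 h by 1.15 ± 0.14 (SE, adjusted p = 0.00241), where 0.47% of all probe sets were called higher. Between 6 and 12 h none of the 15 was called by limma (4 at an unadjusted p under 0.05), where 0.0129% were called in either direction. B2m 1367595_s_at was higher at 12 h than at 6 h by 0.27 ± 0.08 in that step (adjusted p = 0.48), and its arrays did not overlap.

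Between 12 and 48 h the 2 patterns parted. Higher at 48 h than at 12 h were RT1-Da by 1.58 ± 0.45 (SE, adjusted p = 0.041), RT1-Ba 1370822_at by 1.06 ± 0.29 (adjusted p = 0.037) and RT1-Db1 1370383_s_at by 0.75 ± 0.22 (adjusted p = 0.0433), where 4.65% of all probe sets were called higher. Tap1 1388149_at fell by 1.46 ± 0.14 (adjusted p = 6.37e-05), where 4.44% were called lower. Cd74 at 1.35 ± 0.41 (adjusted p = 0.0556) and RT1-Bb 1371033_at at 0.73 were not called. Deviations of replicates with the same number correlated at 0.122 to 0.172 between these 2 times. With the replicate number as a block RT1-Ba (adjusted p = 0.0512) and RT1-Db1 (adjusted p = 0.0635) were no longer called, so that the count was 2 in place of 4.

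The 3 class II steps from 12 to 48 h each depended on single arrays. RT1-Da, RT1-Ba and RT1-Db1 were each called in 2 of the 6 fits that left out 1 array, and each call was lost without injured 12 h replicate 1 or 3 or without injured 48 h replicate 1 or 2 (adjusted p up to 0.17, 0.126 and 0.147 for the 3 genes). Without injured 48 h replicate 2 the step was 1.11 for RT1-Da, 0.65 for RT1-Ba and 0.45 for RT1-Db1. The Tap1 step was called in all 6 and lay between -1.58 and -1.34.

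The study set 48 h injured arrays against the 48 h sham alone. In that comparison RT1-Da was higher by 2.42 ± 0.63 (SE, 5.35-fold, adjusted p = 0.49), Cd74 by 1.94 ± 0.58 (adjusted p = 0.598), RT1-Ba 1370822_at by 1.70 ± 0.41 (adjusted p = 0.463), RT1-Bb 1371033_at by 1.52 ± 0.50 (adjusted p = 0.635) and RT1-Db1 1370383_s_at by 1.09 ± 0.31 (adjusted p = 0.519). The B2m probe sets were higher by 0.44 ± 0.11 and 0.43 ± 0.13 (adjusted p = 0.471 and 0.6), and Tap1 1388149_at by 0.18 ± 0.20 (adjusted p = 0.941). None of the 15 was called by limma, 7 had an unadjusted p under 0.05, and 0.0129% of all probe sets were called. For 10 of the 15 probe sets all 3 injured arrays lay above the sham, where 25.1% of all probe sets did so.

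With 1 control array the standard errors of this comparison were larger than those against the early shams. For RT1-Da, Cd74, RT1-Bb, B2m and Tap1 1388149_at the difference was smaller than that from the early shams, because the 48 h sham itself stood higher. For Tap1 1388149_at it was 0.18 in place of 0.59. The 48 h sham exceeded the early shams by 0.99 ± 0.58 (SE) for Cd74, by 0.97 ± 0.63 for RT1-Da, by 0.35 ± 0.11 for B2m 1367595_s_at and by 0.41 ± 0.20 for Tap1 1388149_at. None of these was called by limma (adjusted p = 0.842, 0.856, 0.624 and 0.8), 1 of the 15 had an unadjusted p under 0.05, and 0.00644% of all probe sets were called. RT1-Ba 1370822_at did not share this, at -0.20 ± 0.41. The difference of RT1-Da was 2.42 at 48 h from the 48 h sham and 1.81 at 12 h from the early shams, closer together than the injured arrays of the 2 times, and a contrast of the 2 differences was not tested.

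The remaining genes of class II presentation were taken as a list of 12 measured genes with 16 probe sets. At 48 h, where 3.84% of all probe sets were called higher than in the early shams, 8 probe sets of 8 genes on the list were called higher. None was called lower (median 0.54, against -0.02 over all probe sets). Among the 8 called higher were Ifi30, the lysosomal thiol reductase that unfolds antigens (2.15 ± 0.37, SE, adjusted p = 0.00486), RT1-DMb (1.61 ± 0.31, adjusted p = 0.0089) and RT1-DMa (1.21 ± 0.24, adjusted p = 0.0114), the chains of the molecule that exchanges peptides on class II.

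Further members of that list called at 48 h were the lysosomal proteases Lgmn, in 1 of its 2 probe sets (1.31 ± 0.24, SE, adjusted p = 0.00634), Ctsd (1.11 ± 0.15, adjusted p = 0.00143) and Ctsb (0.74 ± 0.12, adjusted p = 0.0031). The second Lgmn probe set was not called (0.01 ± 0.13, adjusted p = 0.973). The costimulatory molecules Cd40 (0.58 ± 0.15, adjusted p = 0.041) and, in 1 of its 2 probe sets, Cd86 (1.05 ± 0.21, adjusted p = 0.0101) were called as well, whereas the second Cd86 probe set was not (0.47, adjusted p = 0.0974). The 48 h sham stood 0.58 above the early shams for Cd40, and the injured 48 h arrays differed from that sham by -0.0067. Against the 48 h sham limma called none of the 16 probe sets (6 at an unadjusted p under 0.05). At 6 h only Cd40 was called (0.78 ± 0.15, adjusted p = 0.0166), and at 3 and 12 h none by limma (4 and 2 of the 16 at an unadjusted p under 0.05, median 0.06 at 12 h).

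The factors that bind the X and Y boxes or act through them, 8 genes with 15 probe sets, were called by limma in no comparison with the shams (3 at an unadjusted p under 0.05 at 48 h against the early shams). Both probe sets of Ciita, the transactivator on which class II transcription depends, lay near 0 at 48 h (-0.08 ± 0.11 and 0.08 ± 0.08, SE, adjusted p = 0.765 and 0.635). For Nfyb, a subunit of the Y box factor, 1 probe set was called lower at 48 h than at 12 h after injury. Its log2 difference was -0.42 ± 0.12 (adjusted p = 0.0406). The other Nfyb probe set, at -0.37 ± 0.19, was not called (adjusted p = 0.274). No other of the 15 was called in this step, where 4.44% of all probe sets were called lower.

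Of the other class I genes, 14 genes with 27 probe sets, 6 probe sets of 5 genes were called higher at 48 h than in the early shams (median 0.26, with 3.84% of all probe sets called higher). They included 2 of the 3 probe sets of Erap1, the peptidase that trims peptides in the endoplasmic reticulum (1.11 ± 0.23 and 1.06 ± 0.24, SE, adjusted p = 0.0128 and 0.0179, with the third at -0.0033, adjusted p = 0.989), and Fcgrt, which pairs with B2m to form the neonatal Fc receptor (0.76 ± 0.18, adjusted p = 0.0227). The mean of the 14 genes ranged from 0.142 to 0.312 at 48 h after injury and was 0.377 in the 48 h sham, against which limma called none of the 27 (7 at an unadjusted p under 0.05). At 6 h Nlrc5, the transactivator of class I genes, was called (0.69 ± 0.15, adjusted p = 0.0268), and at 12 h limma called none (7 of the 27 at an unadjusted p under 0.05). Tapbp, which bridges the transporter to class I, was 0.49 ± 0.14 above the early shams at 12 h and not called (adjusted p = 0.0741). Class I chain genes are near-identical copies, and their probe sets may share signal.

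Interferon gamma signalling, 8 genes with 11 probe sets, had 2 genes called at 3 h, when no class II gene was. Irf1, a transcription factor induced by interferon gamma, was higher by 2.29 ± 0.33 (SE) at 3 h, 2.85 ± 0.33 at 6 h and 2.81 ± 0.33 at 12 h (adjusted p = 0.00613, 0.000345 and 0.000374), and at 48 h it was lower than at 12 h by a log2 difference of -1.98 ± 0.33 (adjusted p = 0.00244). Irf8, a myeloid transcription factor, was called at 3, 12 and 48 h (1.66, 1.35 and 2.04 ± 0.27). In all, 2, 1, 5 and 1 of the 11 probe sets were called higher at 3, 6, 12 and 48 h, against 0.229%, 1.31%, 2.12% and 3.84% of all probe sets. Ifng itself was 0.02, 0.01 and 0.03 ± 0.09 above the early shams at 6, 12 and 48 h, and not called.

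Of 9 monocyte and macrophage probe sets, 4 (against 3.84% of all probe sets) were called higher at 48 h than in the early shams, among them Cd68 (2.98 ± 0.44, SE, adjusted p = 0.0023), Cd14 (2.68 ± 0.60, adjusted p = 0.0195) and Lyz2 (1.86 ± 0.40, adjusted p = 0.0152). The mean of the 9 ranged from 0.114 to 1.88 at 48 h after injury, against -0.48 to -0.45 in the early shams, and was 0.193 in the 48 h sham. Within each injured group from 6 h on, the array highest in this mean was also the highest in the class II mean, and the same array was highest in the microglial and dendritic cell means.

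Microglial markers differed in their course. Of 11 probe sets, 4 were called lower at 6 and at 12 h and 7 higher at 48 h than in the early shams. Of all probe sets, 0.399% and 0.763% were called lower at 6 and 12 h and 3.84% higher at 48 h. The 2 probe sets of P2ry12, a purine receptor of resting microglia, were lower by log2 differences of -2.41 and -2.84 at 12 h. From 12 to 48 h they rose by 3.27 ± 0.33 and 3.59 ± 0.29 (SE, adjusted p = 8e-05 and 1.38e-05). At 48 h after injury they stood at 0.82, 1.77 and 1.26 and at 0.91, 1.31 and 0.91, above all their early shams. Aif1 (2.31 ± 0.31, adjusted p = 0.00128) and Csf1r (1.51 ± 0.21, adjusted p = 0.00162) were higher at 48 h than in the early shams. The mean of the 8 microglial genes ranged from -0.77 to -0.55 at 12 h and from 1.17 to 1.63 at 48 h after injury, against 0.03 to 0.365 in the early shams, and was 0.511 in the 48 h sham.

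Markers of further immune cells were as follows. None of 10 B cell and none of 14 T and NK cell probe sets was called against the shams at any time by limma (0 and 2 at an unadjusted p under 0.05 at 48 h against the early shams), and the mean over B cell genes stayed between -0.11 and 0.0812 on all arrays. Of 8 dendritic cell probe sets, 2 were called higher at 12 h and none at 48 h (2 at an unadjusted p under 0.05), with a mean of -0.04 to 0.313 at 48 h after injury against -0.21 to -0.09 in the early shams. Neutrophil markers were called higher in 2, 3 and 1 of 6 probe sets at 6, 12 and 48 h, where 1.31%, 2.12% and 3.84% of all probe sets were called higher. The part of any of these cells in the class II, B2m or Tap1 results was not tested.

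Markers of other tissue elements also differed between groups. Of 11 meningeal and fibroblast probe sets, 8 were called higher at 48 h than at 12 h after injury (median 1.75, with 4.65% of all probe sets called higher). The mean of their 6 genes ranged from 0.856 to 1.6 at 48 h and from -1.12 to 0.0133 at 12 h, against 0.24 to 0.832 in the early shams and 1.44 in the 48 h sham. Of 13 astrocyte probe sets, 5 (against 3.84% of all probe sets) were called higher at 48 h than in the early shams. Among them was Gfap, an intermediate filament of astrocytes, at 1.85 ± 0.23 (SE, adjusted p = 0.00107). Gfap was at 1.2, 1.28 and 1.04 at 48 h after injury and at -0.4, -0.83 and -0.81 in the early shams, but already at 0.61 in the 48 h sham. The astrocyte mean ranged from 0.351 to 0.378 at 48 h after injury and was 0.111 in the 48 h sham. Hbb, a haemoglobin chain, was higher by 3.40, 3.88 and 2.53 ± 0.51 at 3, 6 and 12 h, and was not called at 48 h. Ttr, which encodes transthyretin and is abundant in the choroid plexus, reached 5.16 and 5.98 on 2 of the 3 h arrays and 5.49 on 1 of the 12 h arrays, and lay between -0.81 and 0.15 in all shams. The part of these tissue elements in the results of the 8 genes was not tested.

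Neuronal markers were set between arrays as a check of the tissue. The mean of 6 neuronal genes ranged from -0.31 to 0.0104 at 48 h after injury, against 0.109 to 0.144 in the early shams, and was -0.09 in the 48 h sham. Because values are centred, this shows a difference between arrays and not the markers' abundance.

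**Figure D5:**
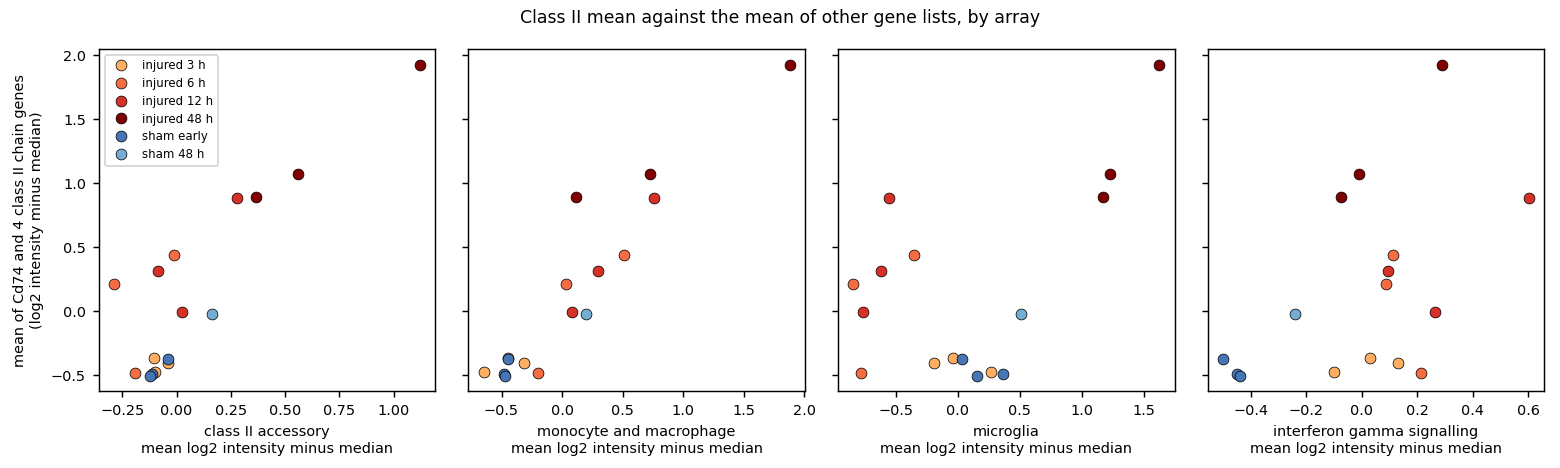
Mean of Cd74 and the 4 class II chain genes (vertical axis) against the mean of 4 other gene lists (horizontal axes), each array a point, in log2 intensity minus the probe set's median. The injured 48 h arrays lie at the upper right for class II accessory and microglial genes. For monocyte and macrophage genes 1 of them lies at 0.114, below 2 of the injured 12 h arrays, and for interferon gamma signalling the injured 12 h array at 0.604 lies farther right than any 48 h array.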

How the data were processed

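Affymetrix rat arrays were hybridised with polyadenylated RNA of 16 samples. Per the submitters' processing notes the authors used RMA, and the deposited values are log2 intensities with each probe set's median over the 16 arrays at 0, to 2 decimals. The log base is not stated and was taken as log2. No scanner signals were used here, so probe sets near background could not be marked. Flat probe sets, such as those of Ciita and Ifng, may lie near it, and their small differences may then carry little information. The number of arrays also limits the precision. Symbols came from the array's annotation, updated through RefSeq (20832 probe sets with 1 symbol, 436 with several, 9780 with none).

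Each of the 31042 probe sets, after leaving out 57 controls, was fitted with limma 3.58.1 in R 4.3.3 (lmFit and eBayes, 6 groups, 10 residual degrees of freedom), with Benjamini-Hochberg adjustment over all of them. The fit was tested on simulated data. Genes named are the 8 members, the called genes of fixed lists with the largest differences, and the genes most alike by Pearson's r. Further list and marker genes were named after their values were seen. Members and lists were chosen with earlier results of these data known. Deviations of same-numbered injured replicates from their group means correlated at 0.122 to 0.172 between 12 and 48 h. This was the only pair of times at which every such correlation was over 0.1. Between other times they ran from -0.17 to 0.236, the highest being replicate 1 at 3 and 12 h. Differently numbered replicates were not compared, so these values do not show that arrays were paired. The closest 2 arrays differed by a root mean square of 0.202, so none was a copy.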

Additional observations from a re-analysis of the deposited data

Results flagged for a closer look

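Between consecutive times in injured cortex, 5 steps were called. They equal a difference between injury effects only where the early shams serve as control at both times, and the 48 h sham stood above the early shams by 0.97 for RT1-Da. With the 48 h sham as the control at 48 h, the RT1-Da difference was 2.42 there, against 1.81 at 12 h from the early shams, and the change between those values was not tested. Tap1 1388149_at was higher at 6 h than at 3 h by 1.15. RT1-Da was higher at 48 h than at 12 h by 1.58, RT1-Ba 1370822_at by 1.06 and RT1-Db1 1370383_s_at by 0.75. Tap1 1388149_at changed in the opposite direction over that interval, with a log2 difference of -1.46. No explanation was tested for these differences.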

How the results depend on the processing

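Of 18 called results on single probe sets, all 18 kept their sign under every alternative and 8 were also called under every one. No called value reversed. Among 1755 recomputed values, 63 changed sign where neither fit made a call, in 29 results no larger than 0.71 in size. The members called at 6 h against the early shams were 2 in place of 1 with single-symbol probe sets or quantile normalization, B2m 1367595_s_at being added. At 12 h they were 2 in place of 4 with a 2-fold minimum or with the sham of the same time, and 2 to 6 when 1 array was left out. At 48 h against the early shams they were 5 of 8 genes with gene means, 5 in place of 8 with the 2-fold minimum, and 7 to 8 when 1 array was left out. Against the 48 h sham the count was 0 to 1, the 1 being RT1-Ba 1370822_at without injured 48 h replicate 3 (adjusted p = 0.027). From 3 to 6 h it was 2 in place of 1 with quantile normalization, RT1-Da being added right at the threshold. Rounded to 3 digits, its adjusted p was not under 0.05, and in the main limma fit it was 0.237. Between 12 and 48 h it was 1 in place of 4 in a fit of these groups alone, 2 with the replicate block, and 1 to 5 when 1 array was left out. The replicate block changed no count at the other steps. Totals over all probe sets moved too, with 896 called at 12 h against the early shams and 347 to 1846 when 1 array was left out. At 48 h they were 1908 and 565 to 2923. A fit without both arrays of widest spread, chosen after seeing the data, called 7 members at 48 h and 3 at 12 h against the early shams.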
